A study of Rattus norvegicus with 36 samples.

Results

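The proteasome genes of rat liver were followed over 6 dose groups of a flame retardant. They were all genes whose array symbol begins with Psma, Psmb, Psmc, Psmd, Psme, Psmf or Psmg and that have a probe set with 1 gene symbol, each represented by its probe set with the highest mean over all 36 samples. This gave 46 genes of 14217 named genes on the array, with 60 probe sets in all, and 37 of the genes had 1 probe set. By role they were 7 subunits of the alpha ring, 6 constitutive and 3 immunoproteasome subunits of the beta ring, 6 ATPases and 11 other subunits of the regulatory particle, 4 activators and inhibitors, 7 assembly factors and 2 genes that are named after a subunit but encode partner proteins. Psmb6, the caspase-like catalytic subunit, is not among them because its probe set also lists Psmb6l1, and Psme3 is not because each of its 4 probe sets also lists Aoc3 and G6pc1.

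Male Sprague Dawley rats, 7 weeks old at the start, were gavaged on 5 consecutive days with hexachlorocyclopentadienyl-dibromocyclooctane (HCDBCO) in corn oil, at doses from 0.05 through 0.54, 5.41 and 54.1 up to 541 mg/kg, or with corn oil alone (vehicle). Liver RNA of 6 samples per group, taken from the left lobe on the day after the last dose, was hybridised to one Affymetrix expression array per sample. The design sets each dose against vehicle. The labels give no animal numbers and name no batch, so p-values measure only the spread between these samples.

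The proteasome is the protease that degrades proteins marked with ubiquitin. Its core is a barrel of alpha rings, which gate entry, around beta rings, which hold the catalytic sites, and a regulatory particle on the barrel binds ubiquitin chains, removes them and unfolds the substrate with a ring of ATPases. Catalytic beta subunits have interferon-inducible replacements that form the immunoproteasome, which favours peptides suited to presentation on MHC class I molecules. When proteasome activity falls short, the transcription factor Nfe2l1 is known to raise the subunit genes together, and Nfe2l2 does so for part of them in response to electrophiles.

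Both routes of control have known sequence motifs, so the 250 bases before the start site were searched on both strands in the 42 of these genes that the RefSeq promoter table (GRCr8) holds. Psma7, Psmd6, Psmd12 and Psmd14 are not in it. The core of the antioxidant response element, TGACNNNGC, was found in 6 of the 42 (14.3%), against 10.1% of all 33469 promoters: Psma3, Psmb2, Psmb5, Psmd1, Psmd9 and Psme4. The interferon response type repeat, GAAANNGAAA, was found in 5 (11.9%), against 3.41% of all promoters: Psma4, Psmb3, Psmb10, Psmd7 and Psme2. A match describes the letters only, and a gene without one is not shown to lack the factor.

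The promoters of 3 constitutive genes with the first motif show how its place differs, with the match in capitals (the Psme4 match is on the opposite strand and therefore reads as its reverse complement).
Psmd1 promoter (chr9:94157721-94157970, + strand): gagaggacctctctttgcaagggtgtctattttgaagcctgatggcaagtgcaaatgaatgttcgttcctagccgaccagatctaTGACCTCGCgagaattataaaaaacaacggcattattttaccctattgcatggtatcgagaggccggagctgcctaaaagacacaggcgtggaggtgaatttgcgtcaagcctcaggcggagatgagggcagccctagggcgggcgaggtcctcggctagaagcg
Psmb5 promoter (chr15:32047380-32047629, - strand): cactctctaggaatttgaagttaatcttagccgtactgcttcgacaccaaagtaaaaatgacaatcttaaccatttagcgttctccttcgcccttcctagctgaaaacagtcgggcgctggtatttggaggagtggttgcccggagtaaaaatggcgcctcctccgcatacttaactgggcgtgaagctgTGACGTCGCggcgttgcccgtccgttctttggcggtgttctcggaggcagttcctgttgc
Psme4 promoter (chr14:108706393-108706642, + strand): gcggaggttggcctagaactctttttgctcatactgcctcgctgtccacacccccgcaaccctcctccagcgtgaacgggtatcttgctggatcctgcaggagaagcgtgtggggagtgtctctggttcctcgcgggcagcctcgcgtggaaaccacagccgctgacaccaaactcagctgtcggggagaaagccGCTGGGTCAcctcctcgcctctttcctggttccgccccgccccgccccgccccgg
The match began 165 bases before the start site in Psmd1, 60 before it in Psmb5 and 55 before it in Psme4. Psmb7, which had one of the smallest p-values at the highest dose, is shown for contrast, since its window held neither motif.
Psmb7 promoter (chr3:42827471-42827720, - strand): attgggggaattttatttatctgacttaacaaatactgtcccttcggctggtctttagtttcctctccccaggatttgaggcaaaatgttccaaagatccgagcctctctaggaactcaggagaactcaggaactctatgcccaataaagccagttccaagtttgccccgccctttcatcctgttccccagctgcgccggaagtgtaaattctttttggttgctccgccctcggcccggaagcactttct
The catalytic immunoproteasome subunit Psmb10 and the activator subunit Psme2 are shown for the second motif, which stands in capitals and occurs 2 times in Psmb10.
Psmb10 promoter (chr19:50743293-50743542, - strand): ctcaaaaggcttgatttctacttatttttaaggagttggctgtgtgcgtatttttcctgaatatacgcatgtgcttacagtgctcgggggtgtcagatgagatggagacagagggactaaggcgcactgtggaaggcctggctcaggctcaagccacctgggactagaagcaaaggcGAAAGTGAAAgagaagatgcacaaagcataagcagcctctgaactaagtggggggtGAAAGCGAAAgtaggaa
Psme2 promoter (chr15:33052752-33053001, - strand): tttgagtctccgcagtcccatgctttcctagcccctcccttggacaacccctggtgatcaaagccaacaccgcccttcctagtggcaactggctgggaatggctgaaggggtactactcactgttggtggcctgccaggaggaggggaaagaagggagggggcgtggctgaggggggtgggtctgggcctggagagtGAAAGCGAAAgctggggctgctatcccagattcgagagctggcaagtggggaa
Within Psmb10 the repeat nearest the gene began 17 bases before the start site, and that of Psme2 began 53 bases before it. The immunoproteasome genes Psmb8 and Psmb9 and the activator gene Psme1 held no match to the second motif. Psma4, Psmb3 and Psmd7, which are constitutive, held one.

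At 541 mg/kg nearly all proteasome genes had slightly higher means than in vehicle, and no single gene passed the FDR. The mean was higher for 44 of the 46, with a median difference of 0.12 on the log2 scale (1.09-fold), against 0.01 over all 31042 probe sets tested. The highest were Psmb8 at 0.30, Psmb9 at 0.26, Psmd5 and Psmd14 at 0.25 and Psmb7 at 0.24, and the only means below vehicle were those of Psma3 (-0.07) and Psmc3ip (-0.10). At an unadjusted p under 0.05 in limma, 19 of the 46 were higher and 0 were lower, where 4.49% of all probe sets were higher and 4.58% lower. Among the 15521 probe sets above the median level, to which all 46 belong, 4.98% were higher. In limma with Benjamini-Hochberg adjustment over all probe sets, 0 of the 46 passed an FDR of 5%, and 48 probe sets of the whole array did (0.155%). For no member did all 6 samples at 541 mg/kg lie above all 6 of vehicle, which 0.393% of all probe sets did. Without 541 mg/kg replicate 6, whose mean over the 46 genes was the highest of the 36 samples (9.80), the count of 19 was 11. Some members varied together within groups, such as Psmb7 and Psmb5 (r = 0.80), and all share the same vehicle samples. Counts of members, here and at the other doses, therefore cannot be taken as counts of independent genes.

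**Figure D1:**
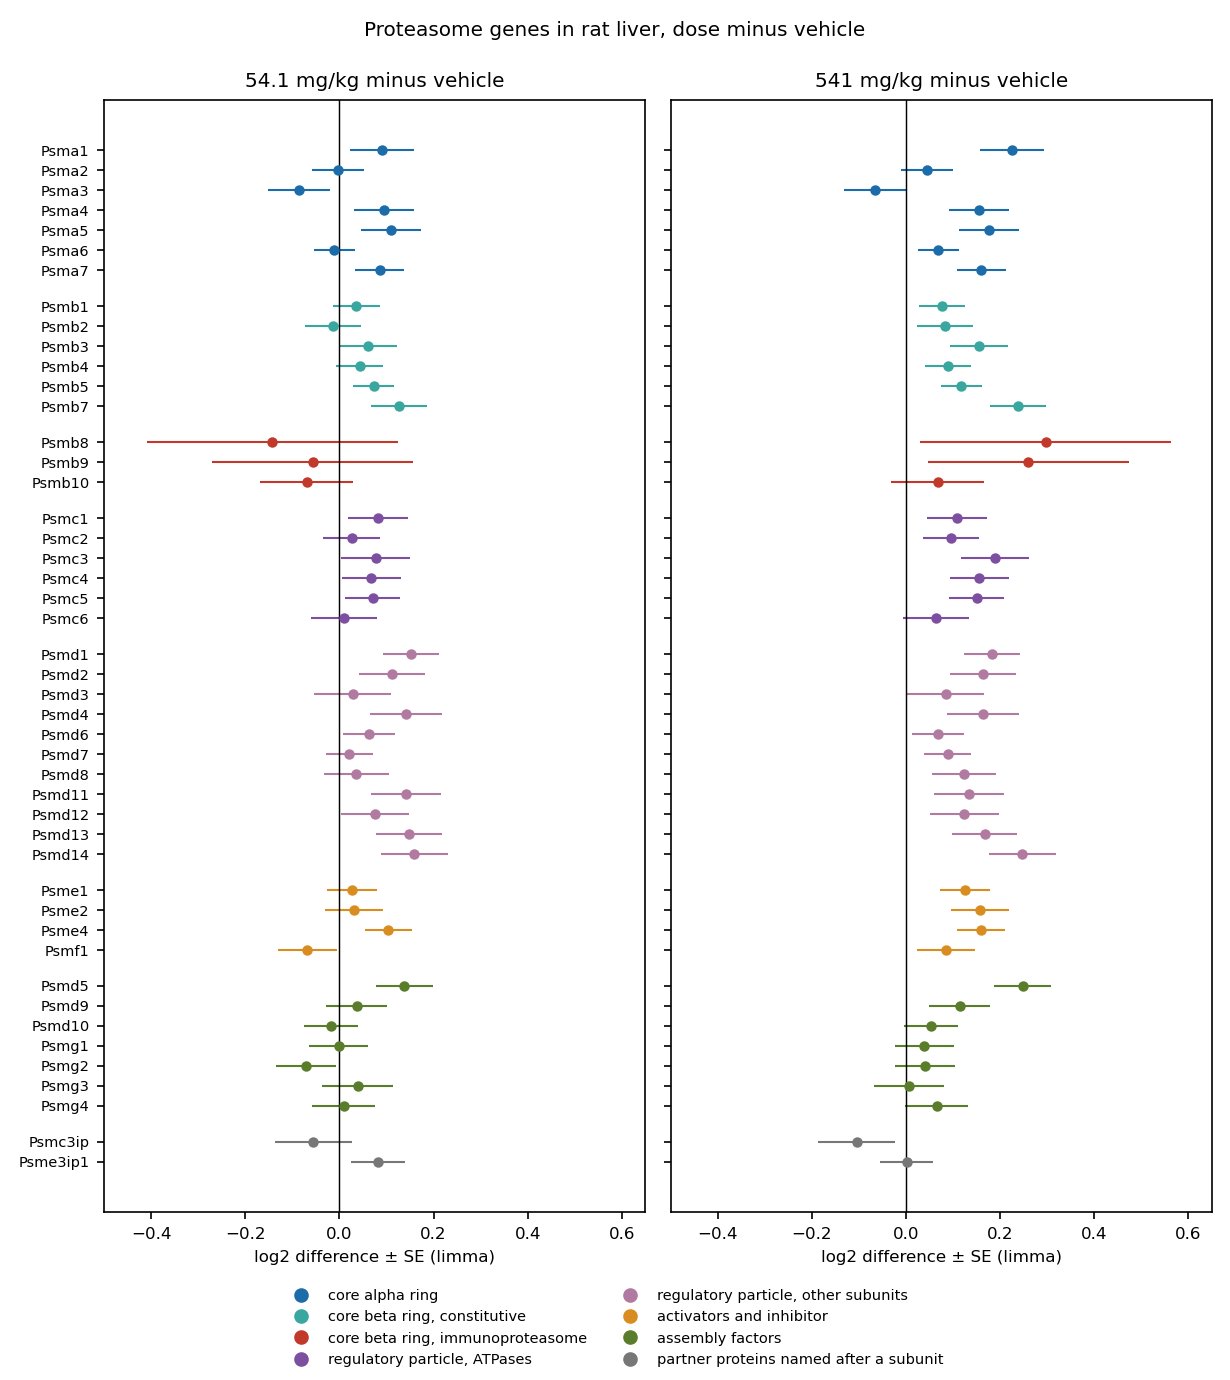
Difference from vehicle of each proteasome gene at 54.1 mg/kg (left) and 541 mg/kg (right), in log2 units, with 1 point per gene coloured by role and bars of 1 standard error from limma (n = 6 per group). At 541 mg/kg 44 of 46 points lie to the right of 0, most of them between 0.05 and 0.25, and the immunoproteasome genes Psmb8 and Psmb9 have the widest bars.

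The average level of the members overlapped between the groups. The mean over the 46 genes ran from 9.46 to 9.60 in vehicle and from 9.55 to 9.80 at 541 mg/kg, where 4 samples (9.65, 9.67, 9.72 and 9.80) lay above every vehicle sample and 2 (9.55 and 9.57) lay within the vehicle range. The group means of this average were 9.54 ± 0.06 (SD) in the 6 vehicle samples, 9.57, 9.55, 9.58 and 9.58 at the doses between, and 9.66 ± 0.09 at 541 mg/kg. The upper quartile of the arrays was 7.08 ± 0.03 in vehicle and 7.06 ± 0.02 at 541 mg/kg. The difference between the 3′ and 5′ probe sets of beta-actin, a sign of RNA breakdown, was 1.13 ± 0.08 in vehicle and 1.18 ± 0.09 at 541 mg/kg, and its part in the result was not tested. The array of 54.1 mg/kg replicate 5 stood apart, with an upper quartile of 6.94 against 7.03 to 7.13 on the 35 others. No 2 arrays held identical values. Levels are log2 values as the authors' normalisation gave them, and are compared between samples for 1 gene, not between genes. Where 3 log2 levels are given for a gene in a group, they are the lowest, the median and the highest of its 6 samples.

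The alpha ring genes were among those with the larger differences: 6 of 7 had a higher mean at 541 mg/kg, 4 of them at an unadjusted p under 0.05, with a median of 0.16. Psma1, an alpha ring subunit, had lowest, median and highest log2 values of 10.27, 10.49 and 10.66 in vehicle and 10.53, 10.67 and 10.92 at 541 mg/kg. Its means at the 4 doses between were 10.50, 10.54, 10.52 and 10.57. All 6 samples at 541 mg/kg exceeded the vehicle mean and 3 exceeded every vehicle sample, with a difference of 0.22 ± 0.07 (limma, SE; unadjusted p = 0.00230, adjusted p = 0.205). Psma7, a subunit of the same ring, lay at 10.70, 10.80 and 10.88 in vehicle and at 10.84, 10.94 and 11.14 at 541 mg/kg, with means of 10.84, 10.81, 10.86 and 10.88 at the doses between. Here 4 of the 6 samples lay above all of vehicle, at a difference of 0.16 ± 0.05 (unadjusted p = 0.00440). Psma5, another alpha ring gene, lay at 10.51, 10.75 and 10.83 in vehicle and at 10.69, 10.90 and 11.10 at 541 mg/kg, with means of 10.74, 10.75, 10.80 and 10.82 at the doses between. Its groups overlapped further, and the difference was 0.18 ± 0.06 (unadjusted p = 0.00863). Psma4 was the fourth, at 0.16 ± 0.06. Psma2 (0.05) and Psma6 (0.07) lay close to vehicle, and Psma3 was -0.07 ± 0.07, with 1 of 6 samples above the vehicle mean. Another probe set of Psma3 was left out because it also lists Psma3l.

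All 6 constitutive beta ring genes had higher means at 541 mg/kg, 3 of them at an unadjusted p under 0.05, with a median of 0.10. Psmb7, the trypsin-like catalytic subunit, had lowest, median and highest log2 values of 9.47, 9.56 and 9.70 in vehicle and 9.67, 9.78 and 9.97 at 541 mg/kg. Its means at the 4 doses between were 9.58, 9.64, 9.70 and 9.71. Of the 6 samples at 541 mg/kg, 5 lay above every vehicle sample, and the difference was 0.24 ± 0.06, with a 95% confidence interval of 0.12 to 0.36 and an adjusted p of 0.0931 in limma. It passed the FDR when the dimmer probe sets were left out (adjusted p = 0.0454, limma), with array quality weights (0.0450) and after leaving out replicate 2 of 541 mg/kg (0.0451). Psmb5, the chymotrypsin-like catalytic subunit, lay at 11.09, 11.12 and 11.21 in vehicle and at 11.17, 11.24 and 11.38 at 541 mg/kg, with means of 11.16, 11.16, 11.17 and 11.20 at the doses between. The difference was 0.12 ± 0.04 (unadjusted p = 0.0107), and 4 of 6 samples exceeded all of vehicle. Its other probe sets, both dim, differed by 0.08 and 0.00. Psmb3, a beta subunit without a catalytic site, lay at 10.27, 10.45 and 10.50 in vehicle and at 10.44, 10.55 and 10.71 at 541 mg/kg, with means of 10.38, 10.44, 10.42 and 10.48 at the doses between. Psmb3 differed by 0.15 ± 0.06 (unadjusted p = 0.0161). Psmb1, Psmb2 and Psmb4 lay between 0.08 and 0.09 above vehicle.

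The ATPases of the regulatory particle, which form the ring that unfolds and threads substrates, were all higher at 541 mg/kg in their means, from 0.06 (Psmc6) to 0.19 (Psmc3), with 3 of 6 at an unadjusted p under 0.05. Psmc3, the leading ATPase, lay at 10.09, 10.27 and 10.47 in vehicle and at 10.17, 10.47 and 10.73 at 541 mg/kg, with means of 10.35, 10.38, 10.40 and 10.35 at the doses between. The ranges overlapped widely, and the difference was 0.19 ± 0.07 (unadjusted p = 0.0136). Psmc5, a second ATPase, lay at 9.33, 9.46 and 9.62 in vehicle and at 9.45, 9.61 and 9.84 at 541 mg/kg, with means of 9.48, 9.47, 9.50 and 9.54 at the doses between. Psmc4, a further ATPase, lay at 9.72, 9.93 and 9.99 in vehicle and at 9.82, 10.06 and 10.26 at 541 mg/kg, with means of 9.91, 9.92, 9.96 and 9.95 at the doses between. Psmc5 differed by 0.15 ± 0.06 and Psmc4 by 0.16 ± 0.06, and for each 5 of 6 samples exceeded the vehicle mean.

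Of the other regulatory particle genes, 11 of 11 had higher means at 541 mg/kg and 5 reached an unadjusted p under 0.05, with a median of 0.13. Psmd14, the metalloprotease that cuts ubiquitin chains off substrates, had lowest, median and highest log2 values of 9.56, 9.65 and 9.78 in vehicle and 9.69, 9.92 and 10.08 at 541 mg/kg. Its means at the 4 doses between were 9.70, 9.72, 9.72 and 9.82. In 5 of 6 samples it exceeded all of vehicle, at a difference of 0.25 ± 0.07 (unadjusted p = 0.00140, adjusted p = 0.184, limma). Its other probe sets differed by 0.18 ± 0.07 and 0.05 ± 0.10. Psmd1, the large scaffold subunit whose promoter is printed above, lay at 8.64, 8.78 and 8.87 in vehicle and at 8.79, 8.95 and 9.10 at 541 mg/kg, with means of 8.76, 8.75, 8.75 and 8.92 at the doses between. The difference was 0.18 ± 0.06 (unadjusted p = 0.00409), and at 54.1 mg/kg it was already 0.15 ± 0.06. Psmd13, a lid subunit, lay at 8.39, 8.43 and 8.65 in vehicle and at 8.45, 8.64 and 8.85 at 541 mg/kg, with means of 8.54, 8.55, 8.58 and 8.62 at the doses between. Psmd13 differed by 0.17 ± 0.07. Psmd2, a scaffold on which ubiquitin receptors dock, differed by 0.16 ± 0.07, and Psmd4, itself a ubiquitin receptor, by 0.16 ± 0.08. The remaining 6 ranged from 0.07 (Psmd6) to 0.13 (Psmd11).

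**Figure D2:**
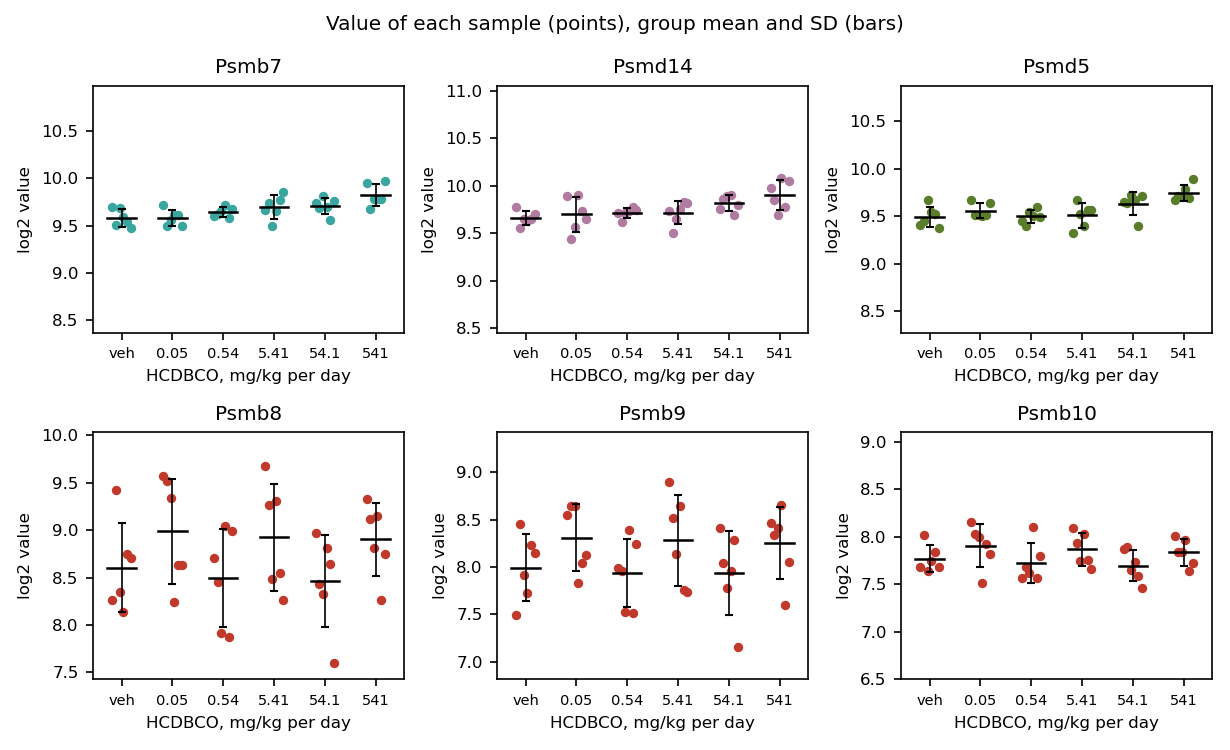
Log2 value of each sample (points) with the group mean and SD (bars) for Psmb7, Psmd14 and Psmd5 (top) and the immunoproteasome genes Psmb8, Psmb9 and Psmb10 (bottom), by dose. In the top row the means at 541 mg/kg are 0.24 to 0.25 above vehicle. In the bottom row the means alternate between doses, and samples of every group are widely scattered for Psmb8 and Psmb9 but less so for Psmb10.

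Activators, which open the barrel without ATP, showed similar differences at 541 mg/kg, with all 4 of this role higher in their means and 3 at an unadjusted p under 0.05. Psme4, the large single-chain activator of the nucleus, lay at 9.50, 9.64 and 9.70 in vehicle and at 9.64, 9.80 and 9.87 at 541 mg/kg, with means of 9.64, 9.60, 9.61 and 9.73 at the doses between. In 5 of 6 samples it exceeded all of vehicle, at 0.16 ± 0.05 (unadjusted p = 0.00342). Its other probe sets differed by 0.10 ± 0.08 and 0.12 ± 0.08 (limma, unadjusted p = 0.239 and 0.139). Psme2, a subunit of the interferon-inducible activator ring, lay at 9.84, 9.90 and 9.96 in vehicle and at 9.93, 10.08 and 10.17 at 541 mg/kg, with means of 9.95, 9.94, 9.96 and 9.93 at the doses between. Psme1, its partner subunit, lay at 11.20, 11.23 and 11.38 in vehicle and at 11.28, 11.41 and 11.45 at 541 mg/kg, with means of 11.28, 11.30, 11.30 and 11.29 at the doses between. Psme2 differed by 0.16 ± 0.06 and Psme1 by 0.12 ± 0.05, and all 6 samples of each exceeded the vehicle mean. Psmf1, which encodes an inhibitor of the core, was 0.08 ± 0.06 from vehicle.

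Assembly factors had a smaller median difference, 0.05, with 7 of 7 higher in mean and 1, Psmd5, at an unadjusted p under 0.05. Psmd5, a chaperone of the regulatory particle base, had lowest, median and highest log2 values of 9.38, 9.49 and 9.67 in vehicle and 9.67, 9.71 and 9.89 at 541 mg/kg. Its means at the 4 doses between were 9.56, 9.50, 9.51 and 9.63. Of the samples at 541 mg/kg, 5 of 6 lay above all of vehicle, and the difference was 0.25 ± 0.06 (95% confidence interval 0.12 to 0.37, adjusted p = 0.0931, limma). The gene passed the FDR with the dimmer probe sets left out (adjusted p = 0.0454, limma), with array quality weights (0.0350) and without vehicle replicate 3 (0.0434). Psmd9, another base chaperone, lay at 8.11, 8.26 and 8.44 in vehicle and at 8.26, 8.34 and 8.70 at 541 mg/kg, with means of 8.26, 8.26, 8.31 and 8.30 at the doses between. Psmg4, a chaperone of the core, lay at 9.48, 9.63 and 9.83 in vehicle and at 9.56, 9.65 and 9.91 at 541 mg/kg, with means of 9.70, 9.67, 9.69 and 9.64 at the doses between. Psmd9 differed by 0.11 ± 0.06 and Psmg4 by 0.07 ± 0.07, and for each the ranges in vehicle and at 541 mg/kg overlapped. The other 4, Psmd10 and Psmg1 to Psmg3, lay between 0.01 and 0.05.

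The 2 genes for partner proteins had a median difference of -0.05 at 541 mg/kg, with 0 at an unadjusted p under 0.05. Psmc3ip, a meiotic recombination factor that binds the ATPase it is named after, lay at 5.81, 5.91 and 6.01 in vehicle and at 5.48, 5.84 and 5.95 at 541 mg/kg, with means of 5.81, 5.73, 5.79 and 5.85 at the doses between. It was -0.10 ± 0.08 from vehicle at 541 mg/kg and -0.18 ± 0.08 at 0.54 mg/kg, the latter at an unadjusted p of 0.0354. Psme3ip1, a binding partner of the nuclear activator, lay at 7.48, 7.69 and 7.75 in vehicle and at 7.52, 7.67 and 7.82 at 541 mg/kg, with means of 7.73, 7.70, 7.75 and 7.74 at the doses between. Its difference at 541 mg/kg was 0.00 ± 0.06.

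At 54.1 mg/kg the same direction was seen in fewer genes. The mean was higher than in vehicle for 34 of 46, with a median of 0.04, and 6 were higher and 0 lower at an unadjusted p under 0.05, against 4.52% and 4.68% of all probe sets. In limma 0 of 46 passed the FDR, and 23 probe sets of the array did (0.0741%). The 6 were Psmd14 (0.16 ± 0.07), Psmd1 (0.15 ± 0.06), Psmd13 (0.15 ± 0.07), Psmd5 (0.14 ± 0.06), Psmb7 (0.13 ± 0.06) and Psme4 (0.10 ± 0.05). The other probe sets of Psme4 differed by -0.01 ± 0.08 and 0.01 ± 0.08 at this dose, and those of Psmd14 by 0.09 ± 0.10 and 0.11 ± 0.07. All 17 regulatory particle genes had higher means, by 0.01 to 0.16. Of the 13 constitutive core genes 9 did, and the 3 immunoproteasome genes lay 0.06 to 0.14 below vehicle. The activators, assembly factors and partner proteins ranged from -0.07 to 0.14. Leaving out vehicle replicate 2 or replicate 3 of 54.1 mg/kg turned the count of 6 into 1. Leaving out replicate 4 of this dose gave 2, vehicle replicate 4 or replicate 6 of this dose gave 3, and replicate 5, the array that stood apart, gave 8. It was 1 when each array was centred on its median.

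At the 3 lowest doses the median difference of the proteasome genes was at most 0.04, while Psmb8 and Psmb9 differed by more, by 0.38 ± 0.27 and 0.31 ± 0.21 at 0.05 mg/kg and by 0.32 ± 0.27 and 0.29 ± 0.21 at 5.41 mg/kg. At 0.05 mg/kg 30 of 46 means were higher with a median of 0.02, and 0 members were past an unadjusted p of 0.05 in either direction (limma, all probe sets: 1.64% higher, 1.38% lower). At 0.54 mg/kg 30 were higher with a median of 0.02, and 0 were higher and 1, Psmc3ip, lower at that p (all probe sets: 2.53% and 1.65%). At 5.41 mg/kg 35 were higher with a median of 0.04, and again 0 passed (2.36% and 2.46%). No member and no probe set passed the FDR at these doses in limma (0.0% each). The count of members higher was 1 at 0.05 mg/kg without vehicle replicate 2 or 0.05 mg/kg replicate 4. At 5.41 mg/kg it was 3 when vehicle replicate 1 or 3 was left out and 2 for replicate 3 of that dose. All of these comparisons share the same 6 vehicle samples.

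**Figure D3:**
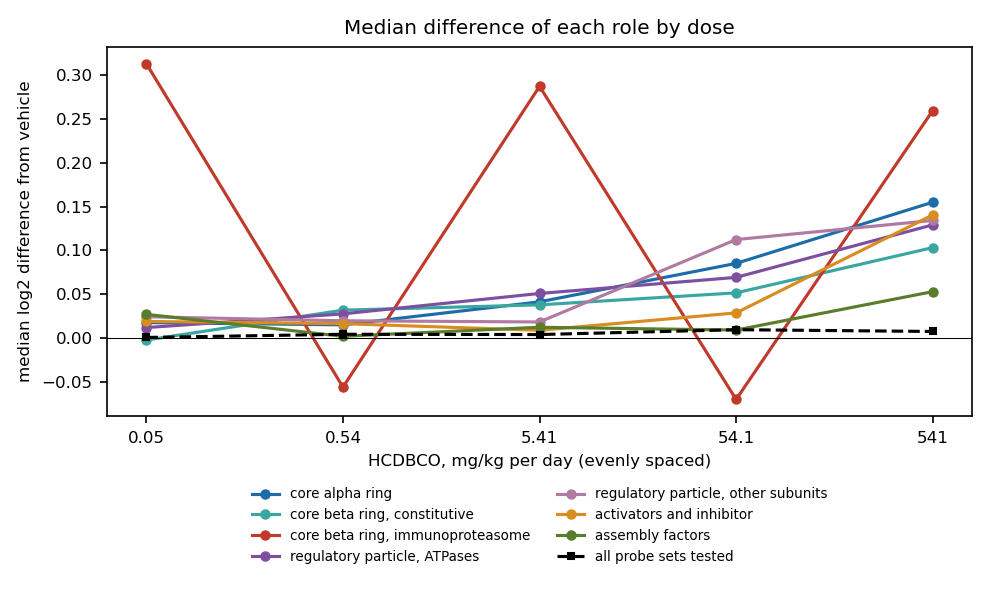
Median log2 difference from vehicle of the genes of each role at the 5 doses, which are spaced evenly, with the median of all 31042 probe sets as a dashed line. The alpha ring, constitutive beta ring, ATPases and other regulatory particle genes lie between 0.10 and 0.16 at 541 mg/kg, and the immunoproteasome genes alternate between about 0.3 and values below 0.

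Comparisons without vehicle gave differences of the same direction at the highest dose. Against 54.1 mg/kg, 42 of 46 means were higher at 541 mg/kg, with a median of 0.07, and 2 were higher and 0 lower at an unadjusted p under 0.05 (all probe sets 2.35% and 2.42%): the inhibitor Psmf1 at 0.15 ± 0.06 and Psme2 at 0.13 ± 0.06. In limma 0 passed the FDR, and 1 probe set of the array did (0.00322%). That count of 2 became 0 when replicate 6 of 541 mg/kg was left out, 6 for its replicate 2, 8 for its replicate 5, and 1 for its replicates 1, 3 or 4 or for replicates 3 or 5 of 54.1 mg/kg. Against the 18 samples of the 3 lowest doses, 44 of 46 means were higher, 20 at an unadjusted p under 0.05 (all probe sets 4.48%), and Psmd5 rose by 0.22 ± 0.05 (adjusted p = 0.0364, limma, where 0.271% of all probe sets passed). The next were Psme4 (0.17 ± 0.04, adjusted p = 0.0651) and Psmd1 (0.19 ± 0.05, adjusted p = 0.0874). Over all 6 groups, limma's F-test gave 0 members an adjusted p under 0.05 (31 probe sets of the array), with 0.253 for Psmd5 as the smallest, and 6 members an unadjusted p under 0.05, against 5.99% of all probe sets.

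The immunoproteasome genes differed from the constitutive ones in how much they varied. Psmb8, the replacement of Psmb5, had lowest, median and highest log2 values of 8.14, 8.53 and 9.43 in vehicle, 8.24, 8.98 and 9.57 at 0.05, 7.87, 8.57 and 9.04 at 0.54, 8.26, 8.91 and 9.67 at 5.41, 7.59, 8.54 and 8.97 at 54.1 and 8.26, 8.96 and 9.33 at 541 mg/kg. All 6 groups overlapped widely. Its differences from vehicle were 0.38 ± 0.27, -0.11 ± 0.27, 0.32 ± 0.27, -0.14 ± 0.27 and 0.30 ± 0.27 from the lowest dose to the highest. Psmb9, which replaces Psmb6, lay at 7.50, 8.03 and 8.46 in vehicle and at 7.60, 8.37 and 8.66 at 541 mg/kg, with means of 8.31, 7.94, 8.28 and 7.94 at the doses between. Psmb10, which replaces Psmb7, lay at 7.64, 7.71 and 8.02 in vehicle and at 7.64, 7.84 and 8.01 at 541 mg/kg, with means of 7.91, 7.72, 7.87 and 7.70 at the doses between. Neither changed in order of dose, and at 541 mg/kg Psmb9 was 0.26 ± 0.21 and Psmb10 0.07 ± 0.10 from vehicle. The interval of the Psmb8 difference at 541 mg/kg, -0.24 to 0.84, holds both 0 and more than the difference of any constitutive gene.

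**Figure D4:**
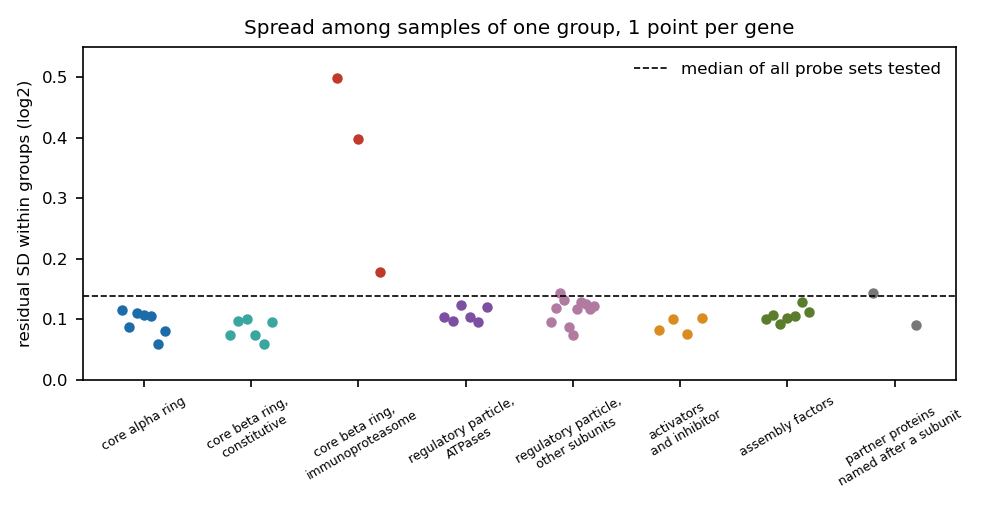
Residual standard deviation among samples of 1 group (log2, 1 point per gene, by role), with the median of all probe sets as a dashed line. Psmb8 at 0.50 and Psmb9 at 0.40 stand far above the other genes, whose median lies below the line.

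Psmb8 had a residual SD of 0.50 and Psmb9 of 0.40, and only 247 and 468 of the 31042 probe sets varied more. Psmb10 had 0.18. The median over the 46 genes was 0.10, against 0.14 for all probe sets, and the least variable was Psma6 at 0.06. The log2 ratio of each immunoproteasome subunit to the constitutive one it replaces was then compared with vehicle for the pairs Psmb8 with Psmb5 and Psmb10 with Psmb7. The ratio of Psmb8 to Psmb5 was -2.52 ± 0.48 (SD) in the vehicle samples and -2.34 ± 0.41 at 541 mg/kg, and that of Psmb10 to Psmb7 was -1.82 ± 0.21 and -1.99 ± 0.17. Each ratio sets different probe sets against each other, so only its change from vehicle is read, not its level. In 10 such tests (2 pairs, 5 doses) the exact permutation p, two-sided over all 924 allotments, ran from 0.121 to 0.916, with an adjusted p of at least 0.614. The smallest was for Psmb10 with Psmb7 at 54.1 mg/kg, where the ratio was 0.20 lower than in vehicle. The pair with Psmb6 could not be made.

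Within groups the immunoproteasome genes varied together. Over the 36 samples, as deviations from their group means, Psmb8 and Psmb9 had r = 0.93 and rho = 0.92, and r lay between 0.89 and 0.99 in each of the 6 groups. Psmb8 and Psmb10 had r = 0.84 and rho = 0.86, and Psmb9 and Psmb10 r = 0.81 and rho = 0.82. The activator subunits Psme1 and Psme2 varied with Psmb8 as well (r = 0.72 and rho = 0.74, and r = 0.72 and rho = 0.70). Tap1, the peptide transporter gene that lies between Psmb8 and Psmb9 on chromosome 20, had r = 0.89 and rho = 0.88 with Psmb8, and B2m, the light chain of MHC class I, r = 0.74 and rho = 0.77. Each of these had a permutation p, within groups, of 1e-05 or 2e-05, where 1e-05 is the smallest that the permutations can give, and an adjusted p of at most 3.2e-05 over 16 relations. Without the 2 samples farthest from the median of the gene named first, r was 0.92, 0.82, 0.79, 0.75, 0.65, 0.87 and 0.76 in the same order. The pairs were chosen with values of these data known.

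**Figure D5:**
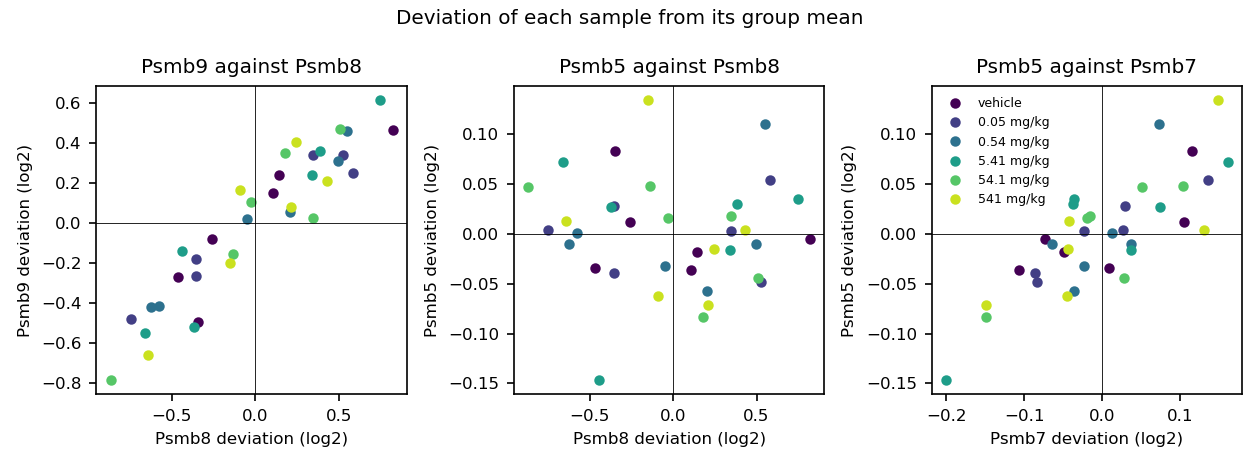
Deviation of each of the 36 samples from its group mean (log2), for Psmb9 against Psmb8, Psmb5 against Psmb8 and Psmb5 against Psmb7, coloured by group. The first panel forms a narrow rising band (r = 0.93), the second shows no slope (r = -0.05), and the third rises over a much smaller range (r = 0.80).

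No correlation of Psmb8 with constitutive genes was detected: with Psmb5 it had r = -0.05 and rho = -0.07 (permutation p = 0.77 and 0.70), and with Psmd14 r = -0.18 and rho = -0.14 (0.33 and 0.46). Psmb10 and Psmb7 had r = 0.01 and rho = -0.03 (0.97 and 0.88). Constitutive genes varied with each other: Psmb7 and Psmb5 had r = 0.80 and rho = 0.75 (both p = 1e-05), and r was 0.74 without the 2 farthest samples. Psmb7 and Psmd14 had r = 0.51 and rho = 0.53 (permutation p = 0.0056 and 0.0033, adjusted 0.0082 and 0.0048), and Psmb7 and Psmd5 r = 0.44 and rho = 0.39 (0.018 and 0.033, adjusted 0.025 and 0.043). In the last pair r ranged from -0.09 to 0.94 within groups. In most groups the sample with the smallest beta-actin difference had the highest mean over the proteasome genes, as given above. The part of RNA breakdown in these correlations was not tested.

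The immunoproteasome gene Psmb8 varied with both macrophage markers it was set against. It had r = 0.77 and rho = 0.74 with Cd68 and r = 0.75 and rho = 0.75 with Csf1r (permutation p of 1e-05 or 2e-05), whereas Psmb7 and Cd68 had r = -0.20 and rho = -0.22 (0.28 and 0.23). The mean over the 8 measured of 11 Kupffer cell and macrophage markers ran from 8.13 to 9.06 in vehicle, 8.21 to 9.28 at 0.05, 8.25 to 9.01 at 0.54, 8.32 to 9.42 at 5.41, 8.05 to 9.14 at 54.1 and 8.27 to 8.93 at 541 mg/kg. Their part in the spread of Psmb8 was not tested. In whole liver RNA, more cells of a type and more RNA per cell cannot be told apart. The 9 measured of 10 hepatocyte markers averaged 13.61 ± 0.02 (SD) in vehicle and 13.56 ± 0.03 at 541 mg/kg. The 6 of 7 endothelial markers averaged 8.19 ± 0.14 and 8.02 ± 0.08, with 0 of 6 higher in mean at 541 mg/kg. In limma 3 of these 6 were lower at an unadjusted p under 0.05, and 0 passed the FDR. Over all probe sets 53.3% had higher means and 4.58% were lower at that p, or 7.22% of those above the median level. The T and NK cell (10 of 10), B cell (3 of 5) and neutrophil (3 of 4) markers averaged 4.69, 5.09 and 4.53 at 541 mg/kg, against 4.60, 5.09 and 4.32 in vehicle. All of these averages lay below the median level of all probe sets (5.11) and are not read as a measure of these cells.

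Genes that control or accompany the proteasome were higher in mean at 541 mg/kg in part. Of 28 listed, 23 were measured, and 16 had higher means, with a median of 0.08, 4 higher and 1 lower at an unadjusted p under 0.05. Over all probe sets 53.3% had higher means, and 4.49% were higher and 4.58% lower at that p, so the 1 lower gene of 23 is near the background. Adrm1, a ubiquitin receptor of the regulatory particle, lay at 6.37, 6.51 and 6.65 in vehicle and 6.48, 6.85 and 7.04 at 541 mg/kg, a difference of 0.30 ± 0.07 (adjusted p = 0.0931, limma), which was 0.0495 with the dimmer probe sets left out and 0.00672 without 541 mg/kg replicate 2. Usp14, a deubiquitinase bound to the proteasome, differed by 0.21 ± 0.07 and Ecpas, an adaptor that holds core and regulatory particle together, by 0.16 ± 0.06. The ubiquitin shuttle Ubqln2 was at 0.16 ± 0.06, and the gene that was lower was Akirin2, a factor for the import of proteasomes into the nucleus, at -0.29 ± 0.13. Both were named after their values were seen. Nfe2l1 lay at 7.27, 7.40 and 7.63 in vehicle and 7.39, 7.54 and 7.87 at 541 mg/kg (0.16 ± 0.08, unadjusted p = 0.0627). Nfe2l2 differed by -0.03 ± 0.13 and Pomp, the chaperone of core maturation, by 0.05 ± 0.04. Transcript levels of these factors do not measure their activity.

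Genes of antigen processing and of the interferon response were also higher in mean, 15 of the 15 measured of 16, with a median of 0.25, 3 at an unadjusted p under 0.05 and 0 past the FDR. They were Tap2, the other peptide transporter chain, at 0.24 ± 0.09, Tapbp, which loads peptides on MHC class I, at 0.18 ± 0.08, and Ifit3, an interferon-induced gene, at 0.61 ± 0.29. Ifit3 was dim, with means of 4.11 in vehicle and 4.72 at 541 mg/kg, below the median level of all probe sets (5.11). Over all probe sets 53.3% had higher means at 541 mg/kg, with a median of 0.01, and 4.49% were higher at an unadjusted p under 0.05. Tap1 and B2m, which are on the list, varied with Psmb8 within groups, so the 15 genes cannot be taken as independent. The list did not follow the order of dose. Of its 15 genes 14 had higher means at 0.05 mg/kg (median 0.16), 7 at 0.54 mg/kg (median -0.00326), 12 at 5.41 mg/kg (0.13) and 9 at 54.1 mg/kg (0.03). The share of all probe sets with higher means was 50.5%, 52.2%, 52.1% and 54.1% in the same order. At these 4 doses 0 genes of the list had an unadjusted p under 0.05, where 1.64%, 2.53%, 2.36% and 4.52% of all probe sets were higher.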

How the data were processed

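The values analysed were the authors' deposited processed values, 1 per probe set and array, taken as log2 values. The submitters' processing notes name RMA, a method of background correction, normalisation between arrays and summary over probes, and the affy package, both without versions. The values ran from 1.94 to 14.7. Their logarithm is taken to base 2 because RMA reports on that scale, which no raw data were used to check. Precision is set by the number of arrays, and the median standard error over the members was 0.063.

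Of 31099 probe sets, 57 controls were left out. The array annotation gave 20826 of the 31042 others 1 symbol, 436 several and 9780 none, and a probe set with several named no gene. All 46 genes matched the RefSeq table (GRCr8) by Entrez ID with the same symbol. The genes, their roles and the other lists were chosen with earlier results of these data known.

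Groups came from the sample titles. A design of 6 group means without covariates was fitted to all 36 samples with lmFit and eBayes of limma 3.58.1 under R 4.3.3 (30 residual degrees of freedom), two-sided, with Benjamini-Hochberg adjustment over 31042 probe sets. Every adjusted p of a gene is from limma, n is 6 per group and ± beside a difference is its standard error. The study's own software for this test, which the design text names, was not used. By a rule, values in all groups were given for the up to 3 members of each role with the smallest p at 541 mg/kg and all 3 immunoproteasome subunits. The rule also named Nfe2l1, Nfe2l2 and Pomp, and from the other lists up to 3 members, which are given by their differences at 541 mg/kg. The marker lists are given by counts and means. Permutations and motif searches used Python 3.11.15 with numpy 2.4.6, pandas 2.3.3 and scipy 1.17.1, and correlations used 100000 permutations within groups. The fit was tested on simulated data with independent probe sets. Recovery was required only for differences larger than any seen among the members, so passing does not show that differences of their size are recovered. Alternatives were other filters, weights, references and probe set rules, a replicate block and leaving out each sample.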

Additional observations from a re-analysis of the deposited data

Results flagged for a closer look

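Of 192 combinations of a named gene and a group of 6 samples, 11 held a sample far from the other 5, and chance flags about 1 in 20 such groups. Psma5 in 0.05 mg/kg replicate 2 was the lowest of its group at 10.5 on the log2 scale, with the nearest other sample at 10.7. Psmb5 in 0.54 mg/kg replicate 4 was the highest of its group at 11.3 on the log2 scale, with the nearest other sample at 11.2. Psmb3 in 0.54 mg/kg replicate 6 was the lowest of its group at 10.3 on the log2 scale, with the nearest other sample at 10.4. Psme2 in 0.05 mg/kg replicate 4 was the lowest of its group at 9.74 on the log2 scale, with the nearest other sample at 9.95. Psme2 in 0.54 mg/kg replicate 4 was the highest of its group at 10.1 on the log2 scale, with the nearest other sample at 9.92. Psme1 in 0.54 mg/kg replicate 3 was the lowest of its group at 11.2 on the log2 scale, with the nearest other sample at 11.3. Psmd5 in 54.1 mg/kg replicate 5 was the lowest of its group at 9.40 on the log2 scale, with the nearest other sample at 9.64. Psmd9 in 541 mg/kg replicate 6 was the highest of its group at 8.70 on the log2 scale, with the nearest other sample at 8.37. Psmg4 in 5.41 mg/kg replicate 1 was the highest of its group at 9.80 on the log2 scale, with the nearest other sample at 9.70. Psmc3ip in 54.1 mg/kg replicate 2 was the highest of its group at 6.12 on the log2 scale, with the nearest other sample at 5.83. Psmc3ip in 541 mg/kg replicate 1 was the lowest of its group at 5.48 on the log2 scale, with the nearest other sample at 5.78. Some of these concern results given above: the low Psmd5 value belongs to the 54.1 mg/kg array that stood apart, and the high Psmd9 value to 541 mg/kg replicate 6.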

How the results depend on the processing

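The count of 19 members higher at 541 mg/kg lay between 15 and 20 under the 8 alternatives that kept all samples and from 11 to 25 with 1 sample left out, and the median difference from 0.0905 to 0.14. The count past the FDR at 541 mg/kg was 2 with the dimmer probe sets left out, 2 with array quality weights, 1 with the 3 lowest doses as reference and 0 to 1 with 1 sample left out. The count of 6 higher at 54.1 mg/kg was 3 from its 2 groups alone, 10 with array quality weights, 1 with arrays centred on their median, 3 with the 3 lowest doses as reference and 1 to 8 with 1 sample left out. With 1 sample left out, the counts higher were 0 to 1 at 0.05, 0 to 3 at 5.41 and 0 to 8 for 541 against 54.1 mg/kg, and the last was 4 with limma's trend and robust settings. The causes were not tested. Of 90 pairs of same-numbered samples from different groups, 24 correlated above 0.1 in their deviations from the group means. Of 450 pairs with different numbers, 96 did. The median correlations were 0.0125 and -0.00437, and the difference was not tested. A replicate block gave 19 higher at 541 and 5 at 54.1 mg/kg.

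Some genes near 0 changed sign. At 54.1 mg/kg against the 3 lowest doses, Psmc3 was -0.0230, Psme2 -0.0194, Psme1 -0.00707, Psmg4 -0.0471 and Psmc3ip 0.0728. Psmd9 was -0.0242 as the mean of its probe sets, and Psmg4 -0.00428 with centred arrays. At 541 mg/kg against the 3 lowest doses, Psmc3ip was 0.0229, Psme3ip1 -0.0716 and Nfe2l2 0.00512, and Psme3ip1 was -0.00201 with array weights and -0.00564 with centred arrays. With 1 sample left out, Psmb8 ran from -0.24 to 0.0306, Psmb9 from -0.16 to 0.10 and Psmg4 from -0.0289 to 0.0477 at 54.1 mg/kg, and Psme3ip1 from -0.0336 to 0.0281 and Nfe2l2 from -0.11 to 0.0451 at 541 mg/kg. The ratio of Psmb8 to Psmb5 ran from -0.24 to 0.0249 at 0.54 mg/kg and that of Psmb10 to Psmb7 from -0.0644 to 0.0610 at 5.41 mg/kg. None of these values passed a test in any setting.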
